A study of Mus musculus with 12 samples.

Results

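The uterus in diestrus was compared with the uterus in metestrus, the stage that precedes it in the estrous cycle. The comparison took 6 of the 12 samples of the series by their stage label: 3 labelled diestrus (replicates 3, 4 and 5) and 3 labelled metestrus (replicates 5, 6 and 7). All 6 were uteri of wild type female mice of the outbred Swiss Webster stock, 8 to 12 weeks old by the design text of the series, with no treatment named. The other 6 samples, 3 from proestrus and 3 from estrus, came from the same kind of mouse and were used to estimate the spread and as a scale. How each mouse was staged, and whether each sample was a single animal, is not given in the sources used here. RNA from the whole uterus was measured by 3' TagSeq, in which the reads come from the 3' ends of polyadenylated transcripts, so that a longer transcript does not gain more reads.

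Of 12052 genes tested, 16 (0.133%) were higher and 11 (0.0913%) were lower in diestrus than in metestrus at an adjusted p under 0.05, 27 (0.224%) in all. The genes higher in diestrus included the transcription factors Sox17 and Gata2, the membrane peptidase Mme and the secreted protein Wfdc1. Among those lower in diestrus were the epithelial calcium channel Trpv6, the matrix crosslinking enzyme Lox, the protein deiminase Padi1 and the transcription factor Cebpb. Only 4 of the 27, Trpv6, Zmpste24, Pfn2 and Tmem132c, were called in all 12 fits that left out a library in turn. Another 7, among them Sox17, Mme, Wfdc1 and Padi1, were lost in at most 4 of these fits. The remaining 16, among them Gata2, Lox and Cebpb, were lost in 6 or more. With the 6 compared samples alone 0 genes were called. The 3 metestrus samples correlated less closely with one another than the 3 diestrus samples did. Replicate 5 lay about midway between diestrus and estrus and was the closest of the 3 to estrus. Replicate 6 lay nearest to diestrus and proestrus, and replicate 7 between estrus and diestrus but nearer to diestrus.

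The estrous cycle is driven by the ovarian steroids. In metestrus, after ovulation, estrogen is low and the new corpora lutea begin to secrete progesterone; in diestrus progesterone is the main ovarian steroid until the corpora lutea regress and estrogen rises again toward proestrus. In the uterus estrogen drives growth of the epithelium, secretion of defence proteins and uptake of water, while progesterone acts through its receptor in epithelium and stroma and opposes the growth of the epithelium that estrogen drives. The tissue holds a luminal and glandular epithelium, a stroma of fibroblasts, vessels and immune cells, and an outer wall of smooth muscle.

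Each library held 1652841 to 2200563 estimated counts, and the 6 libraries compared here 1652841 to 2014907. Levels are given as CPM (counts scaled for library size and composition), always in the order metestrus replicates 5, 6 and 7 and diestrus replicates 3, 4 and 5; a count of 3, the limit that a count of 0 allows, equals 1.37 to 1.83 CPM depending on the library. Markers of smooth muscle, stroma, epithelium, endothelium and macrophages were measured in all 6 samples, and all 12 smooth muscle, 10 stroma, 16 epithelium and 15 endothelium markers passed the filter on low counts. Of 12 ovary markers 2 were tested (Star and Foxl2) and Amh, Fshr, Oosp1 and Zp3 were at 0 in all 6 samples, with a summed level of 42.9 to 78.3 CPM in metestrus and 43.5 to 47.5 CPM in diestrus. Of 13 markers of the squamous epithelium of cervix and vagina 2 were tested (Krt10 and Sbsn) and Krt5, Krt13, Krt6a and Dsc3 were at 0, with a summed level of 17.9 to 29.0 CPM and 12.4 to 27.4 CPM. P-values set a difference against the spread between samples of the same stage, estimated over all 12 samples. The stages shared this estimate, so a spread that was wider in metestrus than elsewhere does not fully enter it. In a whole uterus fewer cells of a type and less RNA per cell cannot be told apart.

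The metestrus samples were first placed one by one against the other stages. A fit to the 9 samples of proestrus, estrus and diestrus, in which no metestrus sample took part, called 3496 genes between estrus and diestrus, and for each of these genes every sample was given a position between the diestrus mean (0) and the estrus mean (1). The median position was 0.509 in metestrus replicate 5, with quartiles over genes of 0.232 and 0.804. It was 0.187 in replicate 6 (quartiles -0.0771 and 0.452) and 0.381 in replicate 7 (0.0614 and 0.698). The diestrus samples set the 0 of this scale. Each of them, left out of the choice of genes and of the diestrus mean, lay at 0.120, 0.0593 and 0.0676 (replicates 3, 4 and 5), and in those fits the metestrus samples lay at 0.507 to 0.543, 0.182 to 0.222 and 0.369 to 0.41. All 3 metestrus samples thus stood on the estrus side of the left-out diestrus sample, replicate 5 about midway and replicate 6 closest to diestrus. The proestrus samples, at 0.2997 to 0.412, lay in the same range as the metestrus samples on this scale, which therefore does not separate those stages.

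A second set of genes was chosen for differences among proestrus, estrus and diestrus. The levels of those stages in it follow from the choice, and only the metestrus samples are read here. In the same 9-sample fit 198 genes were higher in proestrus than in both estrus and diestrus, 927 were higher in estrus than in both others, and 371 were higher in diestrus than in both others. Relative to the mean of the 9 samples, the proestrus-high genes had a median log2 level of 0.17 in metestrus replicate 6, against -0.33 in replicate 5 and -0.47 in replicate 7. When 1 of the 9 libraries was left out of the choice of genes, the level of proestrus-high genes, metestrus replicate 6, ran from 0.0916 (diestrus replicate 4) to 0.528 (proestrus replicate 2). The estrus-high genes had a median of 0.15 in replicate 5, -0.28 in replicate 6 and 0.09 in replicate 7. The diestrus-high genes stood at -0.03, 0.25 and 0.44 in replicates 5, 6 and 7. So replicate 6 was the metestrus sample with the highest proestrus-high genes and the lowest estrus-high genes, and replicate 7 the one with the highest diestrus-high genes.

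**Figure D1:**
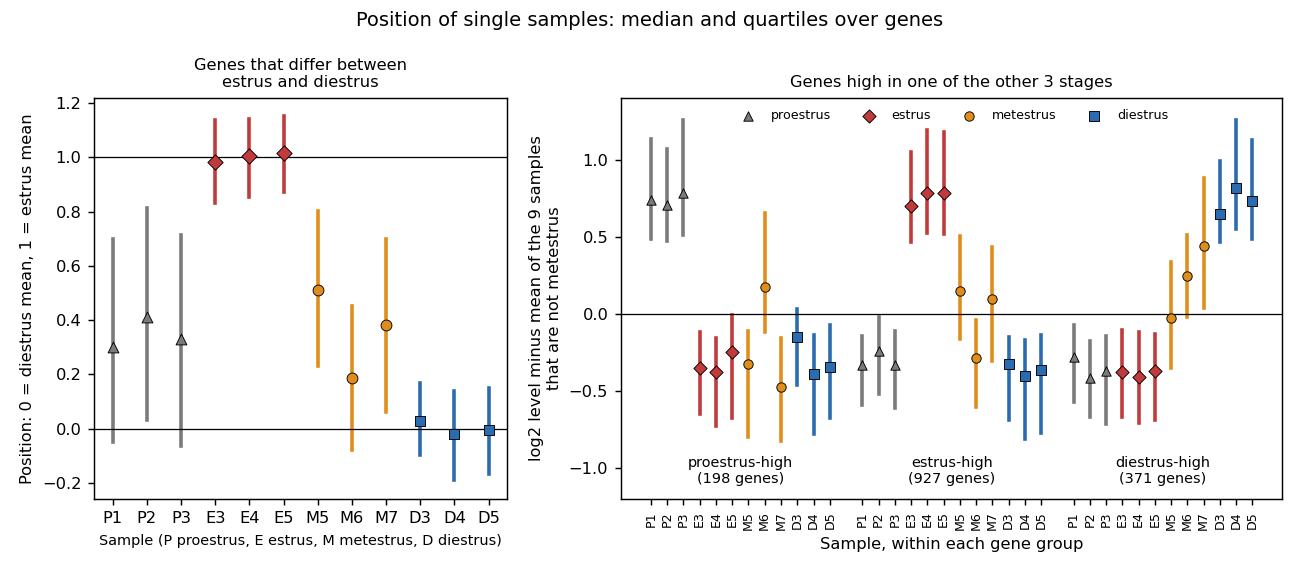
Left, position of each sample between the diestrus mean (0) and the estrus mean (1) over 3496 genes that differ between those stages; right, log2 level of genes high in proestrus, estrus or diestrus, relative to the mean of the 9 samples that are not metestrus. Points are medians and bars quartiles over genes; metestrus replicate 5 lies midway between diestrus and estrus at 0.509, replicate 6 at 0.187, and replicate 6 alone of the metestrus samples has a proestrus-high median above 0 (0.17).

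Taken gene by gene over the 4705 genes that differed among proestrus, estrus and diestrus, replicate 5 was nearest the estrus mean in 37.8%, the diestrus mean in 32.5% and the proestrus mean in 29.7%. Replicate 6 was nearest diestrus in 47.4%, proestrus in 37.1% and estrus in 15.5%. In replicate 7 the shares were 42.2% diestrus, 34.4% estrus and 23.4% proestrus. Over all genes tested, Pearson's r of log2 CPM was 0.917 to 0.918 between metestrus replicate 5 and the estrus samples and 0.894 to 0.915 between it and the diestrus samples. Replicate 6 correlated at 0.925 to 0.947 with the diestrus samples, highest with diestrus replicate 3. It correlated at 0.925 to 0.937 with the proestrus samples, which overlaps the diestrus range, and at 0.870 to 0.877 with the estrus samples. Replicate 7 correlated at 0.906 to 0.926 with the diestrus samples, 0.875 to 0.879 with the estrus samples and 0.867 to 0.878 with the proestrus samples. The metestrus samples correlated with one another at 0.897 to 0.910, below the 0.939 to 0.955 among the diestrus samples; these are descriptions across genes, which are not independent replicates.

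Single genes show what sets each metestrus sample apart. By a fixed rule, the 4 genes with the largest gap between 1 metestrus sample and the nearer of the other 2 were taken in each direction, which gave 24 genes. Of these, 16 shared at least 50% of their 31-base stretches with another gene, so that their counts could have been split between near copies, and they are not described further. A second rule, chosen after values were seen, took the 6 protein-coding genes of the largest gap that shared under 1% of such stretches and no exon with another gene. Among 11413 genes with a mean of at least 5 CPM, metestrus replicate 5 stood at least 2-fold above both other metestrus samples in 236 and below both in 315, replicate 6 in 208 and 216, and replicate 7 in 316 and 269.

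In metestrus replicate 5 most of the genes that stood high were most abundant in estrus. Ltf, which encodes the iron-binding defence protein lactoferrin, had 1259, 102 and 82.9 CPM in metestrus and 109, 17.8 and 147 CPM in diestrus, against 2922 ± 1000.3 CPM (SD, n = 3) in estrus. Complement component C3 had 1893, 161 and 221 CPM in metestrus and 85.7, 64.8 and 142 CPM in diestrus, and the estrus level was 3612 ± 846 CPM. Metestrus replicate 5 thus lay far above all 5 other samples in both genes, while replicates 6 and 7 lay close to the diestrus samples. Il1f6, a cytokine of the interleukin 1 family, had 19.7 CPM in metestrus replicate 5 and was at 0 in the other 5 samples, with 97.9 ± 57.7 CPM in estrus. Similar levels confined to replicate 5 among the 6 samples were seen for Pla2g2e, a secreted phospholipase (17.1, 0.631 and 0.596 CPM in metestrus and 0, 0 and 1.70 CPM in diestrus), and the WAP-domain protein Wfdc18 (24.4, 1.89 and 1.19 CPM in metestrus and 0.997, 1.48 and 1.70 CPM in diestrus). Gpnmb, a membrane glycoprotein of macrophages, had 125, 8.21 and 6.56 CPM in metestrus and 11.5, 5.44 and 46.4 CPM in diestrus. The lipocalin Lcn2, which binds bacterial siderophores, had 976, 167 and 42.3 CPM in metestrus and 36.4, 10.4 and 40.2 CPM in diestrus. Of the 3 other stages estrus had the highest mean in 73.3% of the 236 genes, against 38.2% of all genes of that level. It had the lowest mean in 56.8% of the 315 genes that stood low in replicate 5, against 37.5% of all.

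The same sample held the lowest levels of genes of cell division. Mki67, the proliferation marker Ki-67, had 3.11, 109 and 42.3 CPM in metestrus and 74.3, 62.3 and 56.0 CPM in diestrus. The spindle protein Aspm had 0.519, 32.2 and 10.1 CPM in metestrus and 13.0, 19.8 and 18.7 CPM in diestrus, and Ckap2l, a spindle protein of dividing cells, had 0, 25.2 and 9.54 CPM in metestrus and 11.0, 13.8 and 7.36 CPM in diestrus. In all 3 genes replicate 5 was the lowest of the 12 samples and replicate 6 the highest of the 6 compared here. Col14a1, a collagen that associates with fibrils, was also low there, with 8.82, 73.9 and 85.3 CPM in metestrus and 90.7, 106 and 52.6 CPM in diestrus. Red blood cell markers moved with these samples: their summed level ran from 163 CPM in the lowest metestrus sample to 1430 CPM in the highest, against 236 to 354 CPM in diestrus, with Hbb-bs at 106, 905 and 539.5 CPM in metestrus and 227, 178 and 134 CPM in diestrus; Hbb-bs shares much of its sequence with Hbb-bt, and the part of blood in the results was not tested.

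In metestrus replicate 6 most of the genes that stood high were, of the 3 other stages, most abundant in proestrus. A2m, a broad protease inhibitor of plasma, had 10.4, 109 and 5.96 CPM in metestrus and 34.4, 3.46 and 9.06 CPM in diestrus, against 101 ± 39.6 CPM (SD, n = 3) in proestrus. The tyrosine phosphatase Ptpn5 had 2.59, 51.1 and 5.96 CPM in metestrus and 11.5, 2.97 and 0.566 CPM in diestrus, while proestrus held 76.9 ± 11.8 CPM. Nppc, the precursor of C-type natriuretic peptide, had 0.519, 24.6 and 4.17 CPM in metestrus and 5.98, 2.47 and 0.566 CPM in diestrus and 112 ± 28.6 CPM in proestrus. Inhbb, the beta B subunit of inhibin and activin, had 27.5, 135 and 23.3 CPM in metestrus and 22.9, 5.93 and 1.70 CPM in diestrus and 248 ± 34.3 CPM in proestrus. In all 4 genes replicate 6 was the highest of the 6 samples compared. A2m and Ptpn5 were among the genes that the second rule gave for this sample. Nppc and Inhbb were not, and their high proestrus level is no separate evidence. Spc25 and Aurkb, which serve the attachment and separation of chromosomes, had 4.15, 45.4 and 4.77 CPM in metestrus and 20.9, 7.41 and 15.8 CPM in diestrus and 0.519, 15.8 and 1.19 CPM in metestrus and 5.98, 9.39 and 5.66 CPM in diestrus. Replicate 6 was low for Inmt, an amine methyltransferase, at 115, 16.4 and 264 CPM in metestrus and 10.5, 19.3 and 12.5 CPM in diestrus, where it lay with the diestrus samples and apart from the other metestrus samples. Replicate 6 was likewise the lowest metestrus sample for the protease Mmp7, with 35.3, 1.89 and 15.5 CPM in metestrus and 1.496, 0.989 and 3.40 CPM in diestrus, and Sh3pxd2b, an adaptor protein, had 37.9, 0.631 and 42.9 CPM in metestrus and 8.48, 4.94 and 1.13 CPM in diestrus. Of the 3 other stages proestrus had the highest mean in 73.1% of the 208 genes that stood high in this sample, against 29.0% of all genes of that level. In the 216 that stood low, proestrus had the lowest mean in 51.9% and diestrus in 38.4%, against 30.1% and 32.4% of all.

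Of the 316 genes that stood high in metestrus replicate 7, estrus had the highest mean of the 3 other stages in 46.8%, diestrus in 39.2% and proestrus in 13.9%, against 38.2%, 32.8% and 29.0% of all genes of that level. In the 269 that stood low, diestrus had the lowest mean in 57.2%, estrus in 30.9% and proestrus in 11.9%. The shares of all genes were 32.4%, 37.5% and 30.1%. The calcium-binding protein S100g had 51.3, 46.1 and 1294 CPM in metestrus and 119, 452 and 63.4 CPM in diestrus, so that replicate 7 was the highest of the 12 samples and diestrus replicate 4 the next. Il13ra2, a decoy receptor for interleukin 13, had 0.519, 0.631 and 42.9 CPM in metestrus and 8.97, 20.8 and 5.09 CPM in diestrus. Acod1, which makes itaconate, had 0.519, 0.631 and 37.0 CPM in metestrus and 16.5, 62.8 and 11.3 CPM in diestrus, and the secreted protein Angptl7 4.67, 8.21 and 224 CPM in metestrus and 57.3, 197 and 32.8 CPM in diestrus. In these 3 genes metestrus replicate 7 lay within or above the diestrus range and replicates 5 and 6 lay below it. Depp1, a gene induced by FOXO factors, had 4.67, 3.16 and 162 CPM in metestrus and 0.997, 2.47 and 3.96 CPM in diestrus and was high in replicate 7 alone of the 6. Among its low genes, A2ml1, a protease inhibitor, had 94.4, 19.6 and 1.79 CPM in metestrus and 47.9, 1.48 and 36.2 CPM in diestrus, and Egfl6, a secreted matrix protein, 50.3, 18.3 and 1.79 CPM in metestrus and 34.4, 0.494 and 38.5 CPM in diestrus. In both of these diestrus replicate 4 was as low as metestrus replicate 7, whereas the other 4 samples were far higher.

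A further set of genes in metestrus replicate 7 never entered the test, because the low-count filter asks for counts in several libraries. Of the 18 protein-coding genes that failed the filter and yet reached 20 CPM in at least 1 of the 12 libraries, 8 were highest in metestrus replicate 7; no other library was highest in more than 2. Prss29 and Prss28, serine proteases secreted by the uterine glands around implantation, had 297 and 77.5 CPM there, and no other library exceeded 2.47 and 0.519 CPM. Cyp26a1, which degrades retinoic acid, had 114 CPM in this sample and at most 1.71 CPM in the 11 others. Spink1, a secreted trypsin inhibitor, had 1.56, 1.89 and 479 CPM in metestrus and 0.997, 61.3 and 2.83 CPM in diestrus; diestrus replicate 4 was the only other library with a level above 3 CPM. The remaining 4 were Atp6v0d2, a proton pump subunit, at 132 CPM, the neuropeptide neuromedin B (Nmb) at 79.9, the vitamin E transfer protein Ttpa at 38.2 and the prostaglandin E receptor Ptger2 at 32.8, with at most 5.98 CPM in any other library. These genes were chosen after their values were seen and rest on 1 sample, so no test was made.

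**Figure D2:**
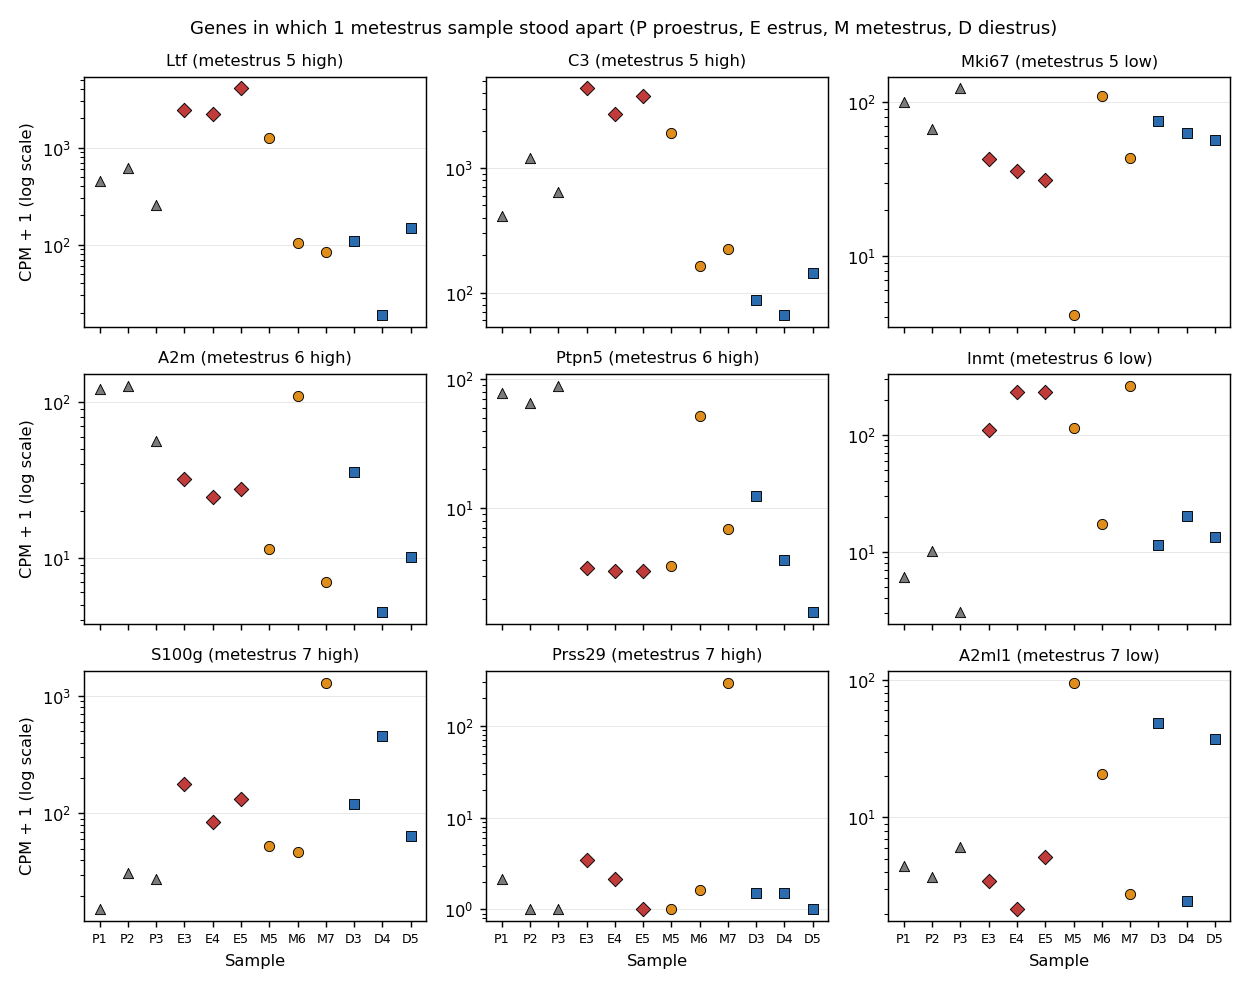
Level of 9 genes in the 12 samples (CPM + 1, log scale; 1 point a sample, coloured by stage), 3 genes for each metestrus sample. Metestrus replicate 5 lies near estrus in Ltf and C3 and lowest in Mki67, replicate 6 near proestrus in A2m and Ptpn5, and Prss29 reaches 296.9 CPM in replicate 7 alone.

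Against this background the comparison of the stages called few genes. The 27 calls at an edgeR adjusted p under 0.05 came from a model of all 12 samples, in which the stages shared 1 estimate of the spread. Before adjustment 542 genes (4.50%) were higher and 819 (6.80%) lower at a p under 0.05. Every diestrus sample lay above every metestrus sample in 840 genes (6.97%) and below in 862 (7.15%), and all 27 called genes were among these. The median log2 difference over all genes tested was -0.02, and 47.9% of genes were above 0. The diestrus mean was the highest of the 4 stage means in 14 of the 16 genes called higher, against 51.7% of all genes with a log2 difference above 0. It was the lowest in all 11 called lower, against 49.0% of all genes with a difference below 0. In 9 of those 11 the means fell in order from estrus to metestrus to diestrus, as they did in 52.6% of the latter.

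**Figure D3:**
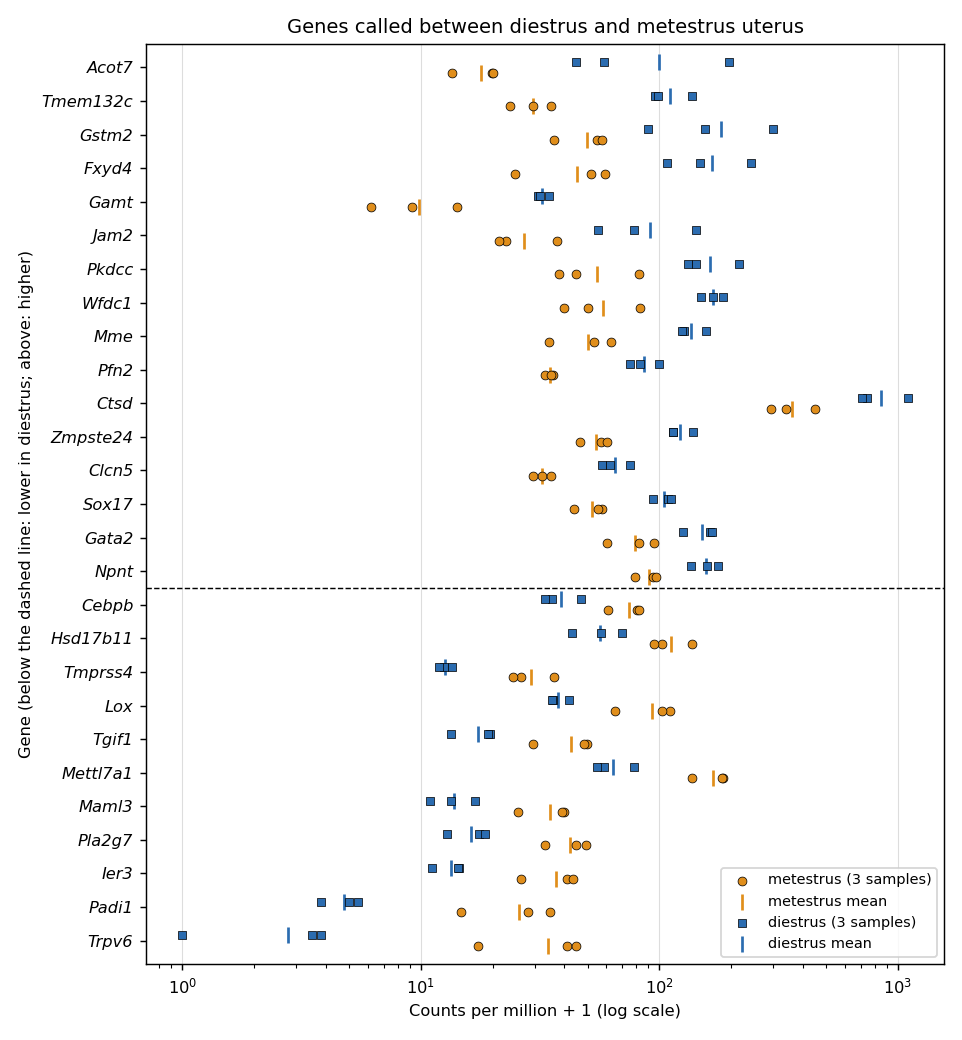
The 27 genes that differed between diestrus and metestrus: level in each of the 6 samples on a log axis (CPM + 1), metestrus as circles and diestrus as squares, with vertical ticks at the stage means. Genes above the dashed line were higher in diestrus (16) and those below it lower (11); in none do the stages overlap.

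Trpv6, the apical calcium channel of absorptive epithelia (chr6:41620624-41636405, minus strand), fell furthest of the 27 called genes. It had 39.9, 16.4 and 43.5 CPM in metestrus and 2.49, 0 and 2.83 CPM in diestrus, after 239 ± 43.0 CPM (SD, n = 3) in estrus. The 3 diestrus samples were near the limit of detection and below all metestrus samples, a log2 difference of -4.22 ± 0.55 (SE) with an edgeR adjusted p of 0.0111. Zmpste24, the zinc protease that processes prelamin A (chr4:121059237-121098241, minus strand), had 56.0, 45.4 and 59.0 CPM in metestrus and 113, 138 and 113 CPM in diestrus. Every diestrus value lay above every metestrus value and diestrus was 2.27-fold higher, a log2 difference of 1.18 ± 0.15 and an edgeR adjusted p of 0.0111. Pfn2, the actin-binding protein profilin 2 (chr3:57841895-57848079, minus strand), had 34.8, 32.2 and 34.0 CPM in metestrus and 82.3, 74.6 and 99.0 CPM in diestrus. The metestrus samples were nearly equal, and diestrus was 2.53-fold higher (log2 1.34 ± 0.18, edgeR adjusted p = 0.0111). Tmem132c (chr5:127241808-127565793, plus strand), a transmembrane protein, had 34.2, 28.4 and 22.7 CPM in metestrus and 94.7, 97.9 and 136 CPM in diestrus, and diestrus was 3.83-fold higher (log2 1.94 ± 0.27, edgeR adjusted p = 0.0111). These 4 genes were called in all 12 fits that left out 1 library in turn. None of the 4 was called with the 6 compared samples alone or with counts scaled from TPM. Trpv6 was also not called by limma-voom, nor Pfn2 and Tmem132c with counts scaled from TPM and gene length.

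Another 7 genes were lost in 1 to 4 of the 12 fits that left out 1 library. Sox17, a transcription factor of uterine glands and endothelium (chr1:4490931-4497354, minus strand), had 56.5, 54.3 and 42.9 CPM in metestrus and 108, 111 and 92.8 CPM in diestrus; diestrus was 2.03-fold higher and the stages did not overlap (log2 1.02 ± 0.14, edgeR adjusted p = 0.0111, and 0.052 without diestrus replicate 4). The secreted WAP-domain protein Wfdc1 (chr8:119666365-119688222, plus strand) had 38.9, 49.2 and 82.3 CPM in metestrus and 148, 184 and 166 CPM in diestrus, with metestrus replicate 7 nearest to diestrus (log2 1.55 ± 0.22, edgeR adjusted p = 0.0111, and 0.0511 without diestrus replicate 4). Mme, the peptidase neprilysin, which cleaves small peptides at the cell surface (chr3:63241537-63386030, plus strand), had 52.4, 33.5 and 61.4 CPM in metestrus and 126, 155 and 123 CPM in diestrus (log2 1.45 ± 0.22, edgeR adjusted p = 0.0162, and 0.074 without diestrus replicate 4). Clcn5, a chloride and proton exchanger of endosomes (chrX:7153810-7319358, minus strand), had 31.1, 34.1 and 28.6 CPM in metestrus and 74.3, 60.8 and 56.6 CPM in diestrus. Its stages stood apart with little spread within metestrus (log2 1.03 ± 0.16, edgeR adjusted p = 0.0167, and 0.052 to 0.0618 without metestrus replicate 5, diestrus replicate 3 or diestrus replicate 4).

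The 3 others of these 7 were lower in diestrus. Mettl7a1, a methyltransferase-like protein of lipid droplets (chr15:100304140-100328662, plus strand), had 183, 136 and 182 CPM in metestrus and 77.3, 57.8 and 53.8 CPM in diestrus (log2 -1.41 ± 0.21, edgeR adjusted p = 0.0162, and 0.0848 to 0.0907 without diestrus replicate 5 or 4); it shares 29.0% of its 31-base stretches with Mettl7a2, so its counts are uncertain. Padi1, which turns arginine in proteins to citrulline (chr4:140812983-140845778, minus strand), had 33.7, 27.1 and 13.7 CPM in metestrus and 3.99, 4.45 and 2.83 CPM in diestrus after 157 ± 47.7 CPM (SD, n = 3) in estrus. Metestrus replicate 7 was the metestrus sample closest to the diestrus level and still lay above all of it (log2 -2.70 ± 0.42, edgeR adjusted p = 0.0194, and 0.059 to 0.0848 without metestrus replicate 5 or any 1 diestrus sample). Tmprss4, a serine protease of the epithelial cell surface (chr9:45172726-45204092, minus strand), had 25.4, 23.4 and 35.2 CPM in metestrus and 11.5, 10.9 and 12.5 CPM in diestrus (log2 -1.27 ± 0.20, edgeR adjusted p = 0.0194, and 0.0635 to 0.101 without any 1 diestrus sample).

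The remaining 16 called genes were lost in 6 to 11 of the 12 fits, and all 16 in the fits without metestrus replicate 5 and without diestrus replicate 4. Among regulators of transcription, Gata2, a factor of the progesterone response in uterine epithelium, had 80.9, 94.1 and 59.0 CPM in metestrus and 124, 162 and 165 CPM in diestrus (log2 0.95 ± 0.17, edgeR adjusted p = 0.0443). Cebpb, which the stroma needs to form decidua, had 79.4, 60.0 and 81.1 CPM in metestrus and 45.9, 34.6 and 32.3 CPM in diestrus and was lower (log2 -0.97 ± 0.17, edgeR adjusted p = 0.0443); an exon of Tmem189 lies opposite 312 bases of it, and whether the counting used strand is not given in the sources used here. Tgif1, a corepressor in TGF-beta signalling, had 48.8, 28.4 and 47.1 CPM in metestrus and 18.4, 12.4 and 18.1 CPM in diestrus. Maml3, a coactivator of Notch, had 38.9, 24.6 and 38.2 CPM in metestrus and 9.97, 12.4 and 15.8 CPM in diestrus. The early response gene Ier3 had 39.9, 25.2 and 42.3 CPM in metestrus and 13.5, 13.3 and 10.2 CPM in diestrus, down from 218 ± 51.3 CPM (SD, n = 3) in estrus. In these last 3 genes metestrus replicate 6 was the metestrus sample nearest to diestrus, and the log2 differences were -1.35 ± 0.23, -1.42 ± 0.26 and -1.53 ± 0.25 (edgeR adjusted p = 0.0368, 0.0474 and 0.0322). Without diestrus replicate 4 the adjusted p of these 5 genes was 0.101 to 0.189, and without metestrus replicate 5 it was 0.0771 to 0.113.

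Of proteins outside the cell and in junctions, Lox, the lysyl oxidase that crosslinks collagen and elastin, had 109, 64.4 and 102 CPM in metestrus and 34.9, 34.6 and 40.8 CPM in diestrus, with a log2 difference of -1.33 ± 0.22 (edgeR adjusted p = 0.0327). Npnt, the matrix protein nephronectin that binds integrins, had 78.3, 93.4 and 95.4 CPM in metestrus and 158, 135 and 175 CPM in diestrus and 160.4 ± 12.0 CPM in estrus, so that metestrus was the lower of the neighbouring stages (log2 0.81 ± 0.14, edgeR adjusted p = 0.0327). Jam2, an adhesion protein of endothelial junctions, had 21.8, 20.2 and 36.4 CPM in metestrus and 54.3, 141 and 77.0 CPM in diestrus. Pkdcc, a secreted tyrosine kinase that phosphorylates matrix proteins, had 36.8, 43.6 and 81.1 CPM in metestrus and 131, 141 and 215 CPM in diestrus. Diestrus replicate 4 was highest for Jam2 and replicate 5 for Pkdcc, and both were higher in diestrus, by log2 1.80 ± 0.32 and 1.59 ± 0.29 (edgeR adjusted p = 0.0443 and 0.0443). Without diestrus replicate 4 the adjusted p of these 4 genes was 0.0511 to 0.142, and without metestrus replicate 5 0.0805 to 0.0961.

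The last 7 are enzymes and an ion pump regulator. Ctsd, the lysosomal protease cathepsin D and a known estrogen target, had 338, 292 and 450.1 CPM in metestrus and 737, 1102 and 704 CPM in diestrus; it shares 33.2% of its 31-base stretches with an overlapping gene model, so its counts are uncertain (log2 1.24 ± 0.21, edgeR adjusted p = 0.0327). Fxyd4, a regulator of the sodium pump, had 58.1, 50.5 and 23.8 CPM in metestrus and 148, 242 and 106 CPM in diestrus and 226 ± 43.4 CPM in estrus, and was lowest in metestrus replicate 7 (log2 1.90 ± 0.34, edgeR adjusted p = 0.0443). The glutathione transferase Gstm2 had 35.3, 53.7 and 56.6 CPM in metestrus and 154, 299.6 and 88.9 CPM in diestrus. Acot7, a thioesterase that cleaves fatty acyl-CoA, had 12.4, 18.9 and 19.1 CPM in metestrus and 43.9, 195 and 57.7 CPM in diestrus. Gamt, an enzyme of creatine synthesis, had 5.19, 8.21 and 13.1 CPM in metestrus and 29.9, 30.6 and 33.4 CPM in diestrus. For Gstm2 and Acot7 the diestrus values themselves spread widely, with replicate 4 highest. Their log2 differences were 1.91 ± 0.35 and 2.57 ± 0.47, and that of Gamt was 1.83 ± 0.33 (edgeR adjusted p = 0.0443, 0.0443 and 0.0443). Pla2g7, which inactivates platelet-activating factor, was lower in diestrus, with 43.6, 32.2 and 48.3 CPM in metestrus and 16.5, 11.9 and 17.5 CPM in diestrus (log2 -1.44 ± 0.26, edgeR adjusted p = 0.0443). Hsd17b11, a short-chain steroid dehydrogenase, was also lower, with 135, 102 and 94.2 CPM in metestrus and 68.8, 55.9 and 41.9 CPM in diestrus (log2 -0.99 ± 0.18, edgeR adjusted p = 0.0455). Without diestrus replicate 4 the adjusted p of these 7 genes was 0.0511 to 0.189, and without metestrus replicate 5 0.052 to 0.116.

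The number of genes called depended on which library was in the fit. Without metestrus replicate 6, 173 genes were called, 60 higher and 113 lower in diestrus, and all 27 genes remained among them. Without metestrus replicate 7 there were 83 calls (45 higher, 38 lower), and without metestrus replicate 5 there were 12. Leaving out diestrus replicate 3, 4 or 5 gave 14, 5 and 12 calls, and of the 27 genes 14, 23 and 15 were lost, at adjusted p-values of 0.0511 to 0.189. Leaving out a proestrus or estrus library, which changes the estimate of the spread and the genes that pass the filter, gave 11 to 16 calls. With the 6 samples of the comparison alone edgeR called 0 genes (smallest adjusted p 0.159; 901 genes at an unadjusted p under 0.05), while DESeq2 on all 12 samples called 153 and limma-voom 14. The split by direction also moved: 59.3% of the calls were higher in diestrus here, 81.2% with library totals in place of composition factors, 33.2% with no filter on low counts, 31.4% in DESeq2 and 92.9% in limma-voom.

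**Figure D4:**
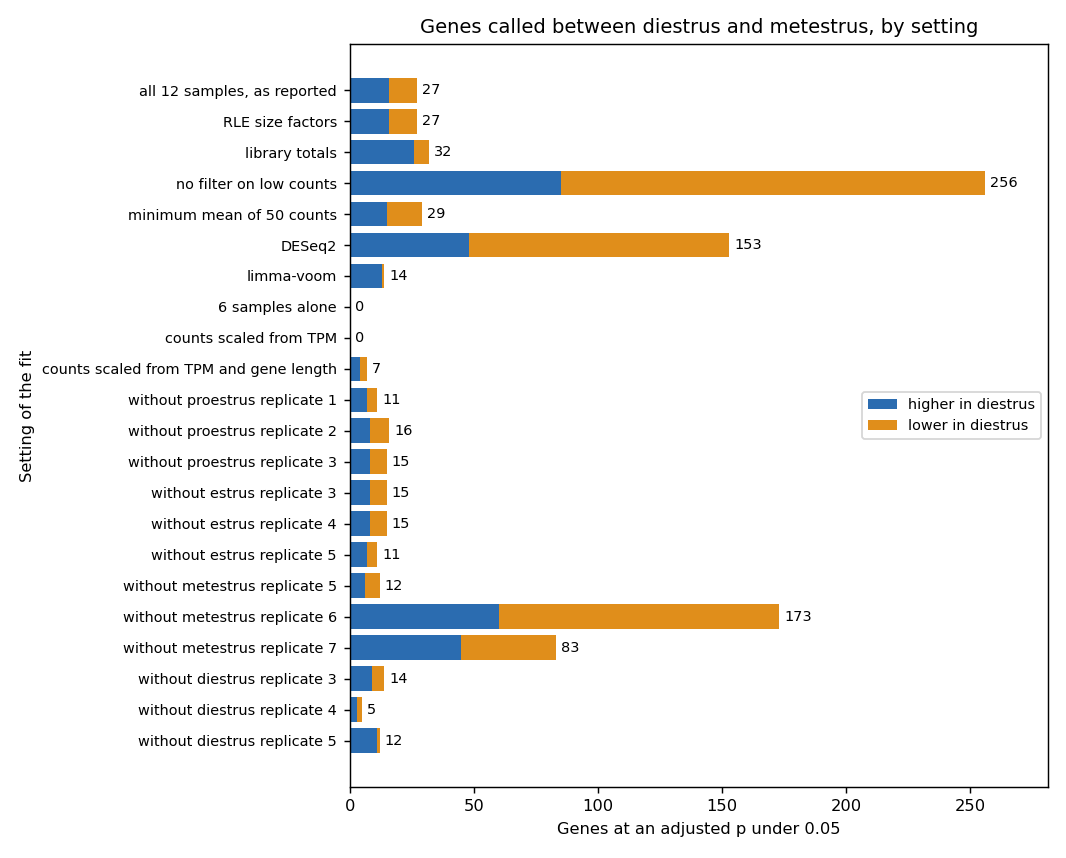
Number of genes at an adjusted p under 0.05 in each fit, higher in diestrus in blue and lower in orange, with the total printed at the end of each bar. The fit as reported has 27; the count runs from 5 without diestrus replicate 4 to 173 without metestrus replicate 6 among fits that leave out 1 library.

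Without metestrus replicate 6 edgeR called 146 genes that it did not call with all 12 samples; DESeq2 called 63 of them on all 12. In 112 of the 146 replicate 6 lay nearer to the diestrus mean than to the other metestrus samples, and in 34 it lay nearer to the other metestrus samples; leaving that library out favours genes of the first kind. The genes described here were chosen after their values were seen. Galnt15, an enzyme that starts O-glycans, had 118, 32.8 and 209 CPM in metestrus and 28.9, 26.2 and 31.7 CPM in diestrus, and without replicate 6 the log2 difference was -2.49 ± 0.24 (edgeR adjusted p = 0.000587, 0.0847 with it). Gpx3, the secreted glutathione peroxidase, had 286, 102 and 322 CPM in metestrus and 82.8, 93.4 and 78.1 CPM in diestrus (log2 -1.84 ± 0.21, edgeR adjusted p = 0.00302 without replicate 6 and 0.0857 with it). Inmt and Mmp7, whose values are given above, were called without replicate 6 (edgeR adjusted p = 0.00302 and 0.00609). With it they were not called (0.0854 and 0.118). Txnip, which binds thioredoxin, had 357, 170.4 and 454 CPM in metestrus and 155, 207 and 166 CPM in diestrus, and the chaperone clusterin (Clu) had 233, 106 and 215 CPM in metestrus and 60.3, 44.5 and 75.8 CPM in diestrus. In each of these genes replicate 6 was the lowest metestrus sample, and for Inmt, Mmp7 and Txnip it lay within the diestrus range.

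In the other direction Slc25a48, a mitochondrial carrier, had 30.6, 81.4 and 25.0 CPM in metestrus and 113, 164 and 147 CPM in diestrus (log2 2.34 ± 0.22, edgeR adjusted p = 0.000587 without metestrus replicate 6). Odc1, which starts polyamine synthesis, had 61.2, 83.3 and 44.7 CPM in metestrus and 107, 115 and 105 CPM in diestrus and was called at 0.00991 without that sample. Mthfd2, a mitochondrial folate enzyme of dividing cells, had 2.59, 17.7 and 7.75 CPM in metestrus and 29.9, 36.1 and 22.6 CPM in diestrus (edgeR adjusted p = 0.0124 without it). Igfbp4, a binding protein of insulin-like growth factors, had 984, 1601 and 1003 CPM in metestrus and 1862, 1482 and 2206 CPM in diestrus (edgeR adjusted p = 0.0311 without it). In all 4 replicate 6 was the highest metestrus sample, and for Igfbp4 it lay within the diestrus range.

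Gene lists were then read as counts and medians, beside 4.50% higher and 6.80% lower at an unadjusted p under 0.05 and a median of -0.02 among all genes. Of estrogen-induced secreted and defence genes, 16 of 20 were tested, none was called and 9 had an unadjusted p under 0.05, all 9 lower; their list's median log2 difference was -2.10. Relative to the diestrus mean, the median of these 16 genes stood at 2.49, 0.64 and 0.47 in metestrus replicates 5, 6 and 7, so most of the difference lay in replicate 5, and the median difference was -0.67 without it. Prap1, a secreted proline-rich protein of the epithelium, had 1688, 48.6 and 302 CPM in metestrus and 60.3, 4.94 and 37.4 CPM in diestrus, with an edgeR adjusted p of 0.116. Clca1, a secreted regulator of chloride currents in mucous epithelia, had 485, 58.1 and 14.3 CPM in metestrus and 25.9, 2.97 and 22.6 CPM in diestrus (edgeR adjusted p = 0.173). Both stages overlapped in these 2 genes, since diestrus replicate 3 exceeded the lowest metestrus sample. Pigr, which carries antibodies across epithelium, had 254, 98.5 and 90.6 CPM in metestrus and 83.3, 35.6 and 50.9 CPM in diestrus, without overlap (edgeR adjusted p = 0.169).

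Among estrogen-induced growth and signalling genes, 20 of 22 were tested; Ctsd rose and Padi1, Ier3 and Cebpb fell, and the list's median was -0.70, but -0.26 without metestrus replicate 5 and -0.13 without replicate 6. Klf4, a transcription factor of differentiating epithelium, had 108, 190.0 and 128 CPM in metestrus and 98.2, 76.6 and 73.6 CPM in diestrus without overlap between the stages (edgeR adjusted p = 0.224). Of small proline-rich genes, which encode crosslinked surface proteins, 8 of 18 passed the filter, the median was -1.31 and -0.07 without metestrus replicate 5. Sprr2f had 638, 161 and 28.6 CPM in metestrus and 121, 118 and 69.6 CPM in diestrus, with metestrus samples on both sides of the diestrus range. Among fluid and ion transport genes, 13 of 21 were tested and none was called. Atp1b1, the beta subunit of the sodium pump, had 46.2, 61.9 and 95.4 CPM in metestrus and 140.1, 220.5 and 122 CPM in diestrus (log2 1.25 ± 0.25, edgeR adjusted p = 0.0617), and the carbonic anhydrase Car2 had 286, 343 and 75.7 CPM in metestrus and 70.3, 59.8 and 45.3 CPM in diestrus (log2 -2.003 ± 0.42, edgeR adjusted p = 0.0727). The stages did not overlap in either gene, and the adjusted p missed the threshold in both.

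Progesterone-induced genes differed in direction with the sample and the member. Of 25 listed and 19 tested, Sox17 and Gata2 were called higher and none lower, 5 were higher and 2 lower at an unadjusted p under 0.05, and the median was 0.29, 0.15 without metestrus replicate 6 and 0.76 without replicate 7. The untested members include Prss28, Prss29 and Cyp26a1, which were highest in metestrus replicate 7. Ihh, the hedgehog ligand by which epithelium signals to stroma under progesterone, had 3.63, 5.68 and 10.1 CPM in metestrus and 16.0, 14.3 and 22.1 CPM in diestrus, and 0.359 ± 0.321 CPM (SD, n = 3) in estrus. Lrp2, an endocytic receptor of the epithelium, had 1.04, 5.05 and 20.9 CPM in metestrus and 36.4, 56.4 and 23.8 CPM in diestrus, and Fkbp5, a chaperone of steroid receptors, 6.22, 3.79 and 9.54 CPM in metestrus and 13.0, 11.9 and 17.0 CPM in diestrus. All diestrus samples lay above all metestrus samples in the 3 genes, metestrus replicate 7 was the nearest, and none passed the test (edgeR adjusted p = 0.175, 0.169 and 0.272). Lifr, the receptor of leukaemia inhibitory factor, and the transcription factor Foxo1 ran opposite, at 239.6, 217 and 252 CPM in metestrus and 174, 157 and 151 CPM in diestrus and 114, 129 and 157 CPM in metestrus and 93.7, 90.5 and 67.9 CPM in diestrus (edgeR adjusted p = 0.0854 and 0.143). By sample, the list's median relative to diestrus was -0.63, -0.83 and 0.17 in metestrus replicates 5, 6 and 7. Replicate 7 stood above all 3 diestrus samples, which lay between -0.08 and 0.10, and the other 2 below them; the summed level of the list was 1546, 1290 and 2592 CPM in metestrus and 1770, 1960 and 1937 CPM in diestrus. Of 14 steroid receptor and cofactor genes none was called, and the median was -0.01.

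Genes of cell division varied more among the metestrus samples than between the stage means. All 24 mitosis genes and 23 of 25 DNA replication genes were tested, none was called and none had an unadjusted p under 0.05, with medians of 0.18 and 0.03. Relative to diestrus the mitosis genes stood at -2.35, 0.94 and -0.60 in metestrus replicates 5, 6 and 7, so that 1 metestrus sample was far below and another far above the diestrus mean. The DNA replication genes followed the same order, at -0.64, 0.35 and -0.36. Ccnb2, a cyclin of mitosis, had 3.63, 17.7 and 6.56 CPM in metestrus and 14.0, 14.3 and 12.5 CPM in diestrus (edgeR adjusted p = 0.65). Tpx2, a spindle assembly factor, had 0.519, 46.7 and 10.1 CPM in metestrus and 25.9, 30.2 and 25.5 CPM in diestrus (edgeR adjusted p = 0.82), so that the diestrus samples lay close together, inside the metestrus range.

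Interferon response genes leaned toward metestrus. Of 26 genes 22 were tested, 21 had a log2 difference below 0, 13 were lower at an unadjusted p under 0.05 and none was called; the median was -0.97. Stat2, a transcription factor of the type I interferon response, had 22.8, 17.7 and 33.4 CPM in metestrus and 8.48, 12.4 and 9.06 CPM in diestrus, and Ifi44, an interferon-induced protein, 18.2, 12.0 and 31.0 CPM in metestrus and 6.98, 6.92 and 3.96 CPM in diestrus. The stages did not overlap in either (edgeR adjusted p = 0.118 and 0.158). Relative to the diestrus mean the list stood at 0.98, 0.32 and 1.37 in metestrus replicates 5, 6 and 7, so replicate 6 was again the closest to diestrus, and 4 members were called when it was left out. Of chemokine ligands 18 of 26 were tested, none was called, and the median was -0.82 and -0.37 without metestrus replicate 5. Cxcl17, a chemokine of mucosal epithelium, had 87.7, 22.7 and 35.2 CPM in metestrus and 8.97, 7.91 and 13.0 CPM in diestrus and the lymphoid chemokine Ccl21a 164, 227 and 259 CPM in metestrus and 136, 117 and 104 CPM in diestrus. Of the 4 members with a log2 difference above 0, Cxcl15 had 3.11, 14.5 and 2.98 CPM in metestrus and 41.9, 34.6 and 17.5 CPM in diestrus and was higher in every diestrus sample (edgeR adjusted p = 0.0857, 0.129 and 0.15 for the 3).

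Of 21 small proteoglycan and matricellular genes tested, none was called, 7 were lower and 1 higher at an unadjusted p under 0.05, and the median was -0.34. Dcn, the collagen-binding proteoglycan decorin, had 2579.8, 2935 and 3651 CPM in metestrus and 2062, 1701 and 1465 CPM in diestrus, a level that never overlapped between the stages (log2 -0.81 ± 0.17, edgeR adjusted p = 0.0692). Of 18 elastic fibre and crosslinking genes Lox alone was called; Loxl2, a related oxidase, had 59.1, 85.8 and 49.5 CPM in metestrus and 117, 85.0 and 135 CPM in diestrus in the other direction (edgeR adjusted p = 0.179). The 16 collagen genes had no call and a median of 0.25, and -0.003 without metestrus replicate 5, with -1.14, 0.27 and -0.25 in metestrus replicates 5, 6 and 7 relative to diestrus. Col12a1, a collagen of fibril surfaces, had 6.74, 6.31 and 6.56 CPM in metestrus and 12.5, 16.3 and 17.5 CPM in diestrus and was higher in every diestrus sample (edgeR adjusted p = 0.169). Among 15 matrix metalloproteinases and inhibitors none was called. Mmp11, stromelysin 3, had 691, 36.0 and 16.1 CPM in metestrus and 24.9, 20.8 and 53.8 CPM in diestrus, and its log2 difference of -2.92 ± 0.98 became 0.34 without metestrus replicate 5.

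The remaining lists held few differences. Over all 24 lists of genes by function, the median changed sign in 9 when 1 metestrus library was left out. All 9 had a median within 0.3 of 0. Of 10 calcium transport genes Trpv6 alone was called, and the median was -0.04. Of 28 WNT pathway genes none was called; the epithelial ligand Wnt7a had 55.0, 32.8 and 15.5 CPM in metestrus and 14.0, 7.41 and 14.1 CPM in diestrus, and Wnt11, another ligand, 1.56, 1.89 and 6.56 CPM in metestrus and 9.97, 18.8 and 7.36 CPM in diestrus, in opposite directions and without overlap (edgeR adjusted p = 0.129 and 0.203). Among 16 prostaglandin genes none was called; the receptor Ptger3 had 15.0, 17.0 and 27.4 CPM in metestrus and 38.9, 47.0 and 80.9 CPM in diestrus (log2 1.48 ± 0.35, edgeR adjusted p = 0.102). Of 29 glutathione transferase, metallothionein and antioxidant genes, Gstm2 alone was called. Of 17 immediate early genes Ier3 alone was called, and Fosl2 of the AP-1 complex had 53.9, 48.6 and 62.0 CPM in metestrus and 37.9, 26.7 and 26.03 CPM in diestrus (edgeR adjusted p = 0.075). In the IGF pathway (13 tested), the receptor Igf1r had 121, 74.5 and 167 CPM in metestrus and 64.8, 75.6 and 74.1 CPM in diestrus (edgeR adjusted p = 0.2), and of 13 retinoid genes Stra6, a receptor for retinol uptake, had 18.2, 18.9 and 18.5 CPM in metestrus and 38.9, 20.8 and 102 CPM in diestrus (edgeR adjusted p = 0.177). No gene was called among 21 cholesterol synthesis, 20 endoplasmic reticulum folding or 17 circadian clock genes, whose medians were -0.10, -0.21 and -0.07.

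**Figure D5:**
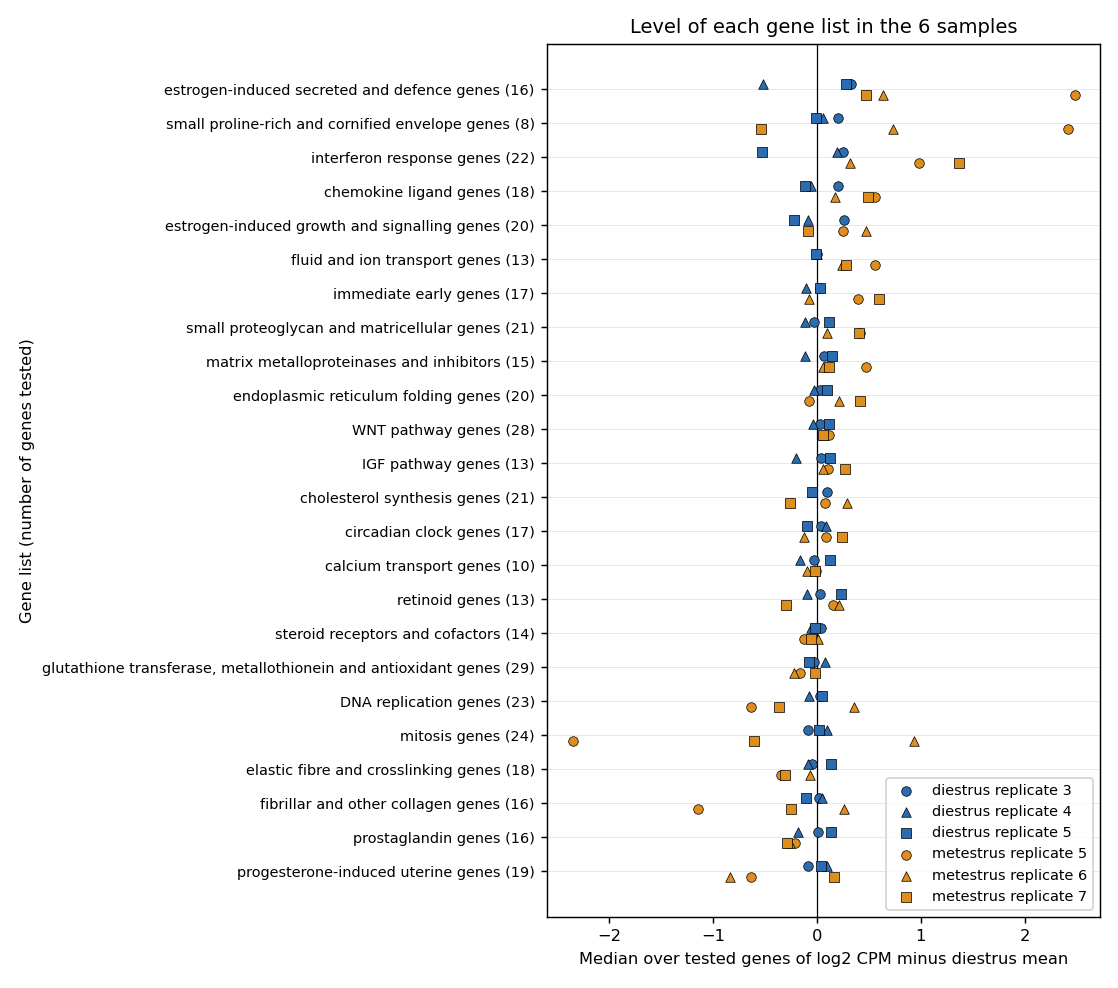
Median over the tested genes of each list of log2 CPM minus the diestrus mean, for the 3 metestrus samples (orange) and the 3 diestrus samples (blue). Metestrus replicate 5 stands highest for estrogen-induced secreted genes (2.49) and lowest for mitosis genes (-2.35), replicate 6 highest for mitosis genes (0.94), and replicate 7 above the diestrus samples for progesterone-induced genes (0.17).

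Cell type markers gave no called gene in any of the 16 lists. The summed level of 16 epithelium markers was 876 to 2388 CPM in metestrus and 1146 to 1333 CPM in diestrus. That of 10 stroma markers was 5670.0 to 9478 and 5809 to 7681 CPM, and that of 12 smooth muscle markers 6986 to 9073 and 7703 to 8259 CPM. The diestrus range lay within the metestrus range in these 3 and in 6 of the 16 lists. It lay below the metestrus range for adipocyte markers (1151 to 1235 CPM in metestrus and 831 to 916 CPM in diestrus) and eosinophil markers (23.99 to 30.4 and 15.3 to 23.9 CPM), and above it for skeletal muscle markers. The eosinophil ranges nearly touched. Of 9 eosinophil markers only Alox15 was tested, and Ear2, Epx and Il5ra were at 0 in all 6 samples. Nearly all of the adipocyte sum was Lipe, the hormone-sensitive lipase, at 1150.4, 1141 and 1212 CPM in metestrus and 909.8, 825 and 890.3 CPM in diestrus (edgeR adjusted p = 0.258). Endothelium markers summed to 1722 to 2162 CPM in metestrus and 1584 to 1729 CPM in diestrus. Within the epithelium list the keratin Krt7 had 163, 111 and 79.3 CPM in metestrus and 39.9, 26.7 and 58.9 CPM in diestrus (log2 -1.50 ± 0.33, edgeR adjusted p = 0.0847), while Krt18 had 198, 158 and 156 CPM in metestrus and 101, 131 and 99.0 CPM in diestrus (edgeR adjusted p = 0.137). Metestrus was higher in every sample of both. Of the 16 epithelium markers 6 had a log2 difference above 0 and 10 below, 1 and 5 of them at an unadjusted p under 0.05. The list's median was -0.40, and 0.10 without metestrus replicate 5. Of 9 skeletal muscle markers 3 were tested, with a summed level of 36.4 to 105 CPM in metestrus and 129 to 199 CPM in diestrus. Acta1, the skeletal actin, had 42.0, 82.1 and 23.8 CPM in metestrus and 99.7, 121 and 144 CPM in diestrus (edgeR adjusted p = 0.169); Myh1 and Myh4 were at 0. Among neutrophil markers 5 of 14 were tested, and S100a9 had 0, 1.26 and 1.19 CPM in metestrus and 12.5, 1.48 and 18.7 CPM in diestrus (edgeR adjusted p = 0.266), with Trem1 and Stfa2l1 at 0. The part of cell type composition in the differences between the stages was not tested.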

How the data were processed

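The authors deposited 1 transcript table per sample with estimated counts, which are not whole numbers, and TPM values, per the file headers; the submitters' processing notes name FastQC, kallisto and DESeq2. Versions, options and annotation are not given in the sources used here. Transcripts were matched by identifier to GENCODE M21 (GRCm38; 116640 of 119414, 97.7%), and unmatched ones (0.619 to 0.774% of counts) were left out. The deposited estimated counts were summed per gene (35896 genes) and rounded. The deposited TPM values served only for an alternative. Low counts were removed with filterByExpr by stage (12052 genes left), and edgeR 4.0.16 (R 4.3.3) fitted a quasi-likelihood model with TMM factors (0.908 to 1.05) and 1 coefficient per stage to all 12 samples (biological coefficient of variation 20.6%, and 23.9% in the fit to the 6 compared samples alone). Tests were two-sided, with Benjamini-Hochberg adjustment over all genes and a threshold of 0.05. CPM are TMM-scaled, log2 CPM used a prior count of 2, and coordinates are 1-based. Alternatives used DESeq2 1.42.0 and limma 3.58.1. The fit and the position measure were tested on simulated data. PCR copies could not be removed, so depth limits cover counting error only.

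Called genes were all named (at most 40); from each list the called members and the 2 of smallest unadjusted p were named, and from each group of stage-high genes 3. List members outside that rule (Pigr, Mki67, Tpx2, Klf4, Sprr2f, Ihh, Lrp2, Lifr, Foxo1, Cxcl15 and Krt18) were named after their values were seen. Members and lists were chosen with earlier results of these data known. Sequence sharing was counted in 31-base stretches of GENCODE transcripts.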

Additional observations from a re-analysis of the deposited data

How the results depend on the processing

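Among 21 alternative fits, the count of 27 called genes (16 higher, 11 lower) moved to 256 (85 and 171) with no filter on low counts, 153 (48 and 105) with DESeq2 and 14 (1 lower) with limma-voom. It was 0 in both directions with the 6 samples alone and with counts scaled from TPM (955 genes at an unadjusted p under 0.05), and 7 (4 and 3) with counts scaled from TPM and gene length, an alternative chosen after seeing the data. With library totals 26 were higher and 6 lower. Leaving out 1 library gave 5 to 173 calls, 3 to 60 higher and 1 to 113 lower. No paired analysis was possible because the 2 stages share 1 replicate number. Over the genes named from calls and lists, 1642 alternative values stayed on their side of the threshold, 250 lost a call, 62 gained one and 5 changed sign without a call: Mmp11 and Bhlhe40 without metestrus replicate 5, Star without metestrus replicate 6, and Sbsn without metestrus replicate 5 or diestrus replicate 4. Over the fits without 1 library their log2 differences ran from -3.48 to 0.34, from -1.40 to 0.0478, from -0.61 to 0.13 and from -0.83 to 0.28. For the level of proestrus-high genes, metestrus replicate 6 had a median of 0.51 over genes that differed at least 2-fold, and 0.0916 to 0.528 when 1 library was left out. The positions of metestrus replicates 5, 6 and 7 between diestrus and estrus ranged over 0.484 to 0.543, 0.174 to 0.222 and 0.348 to 0.421. Depth limits low genes: 3 counts equal 1.37 to 1.83 CPM.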

Other observations

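Diestrus replicate 4 and metestrus replicate 7 shared several extreme genes that the comparison of the stages does not show. Maob, the monoamine oxidase B gene, had 14.0, 17.0 and 142 CPM in metestrus and 69.3, 342 and 62.3 CPM in diestrus, and Coch, a secreted matrix protein, 1.04, 6.31 and 43.5 CPM in metestrus and 3.49, 36.1 and 2.83 CPM in diestrus. Fst, the activin-binding protein follistatin, had 6.22, 12.0 and 84.7 CPM in metestrus and 46.4, 92.4 and 11.9 CPM in diestrus. At the other end 1600014C10Rik had 196, 141 and 17.3 CPM in metestrus and 89.7, 17.3 and 74.7 CPM in diestrus and BC048679 129, 49.2 and 2.98 CPM in metestrus and 45.4, 7.91 and 62.8 CPM in diestrus. In each gene the highest or lowest pair among the 6 samples was metestrus replicate 7 with diestrus replicate 4. Diestrus replicate 4 stood at least 2-fold above both other diestrus samples in 103 genes and below both in 168, against 57 and 84 in replicate 3 and 66 and 144 in replicate 5. These genes were chosen after their values were seen, and no test was made.

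Hdc, which makes histamine, had 6.74, 23.4 and 41.1 CPM in metestrus and 70.3, 92.4 and 64.5 CPM in diestrus, with 4.52 ± 1.06 CPM (SD, n = 3) in estrus, and was among the genes high in diestrus against proestrus and estrus. Some genes had counts near 0 in some uteri and clear counts in others of the same stage. H2-Ea-ps had 43.0, 32.8 and 1.19 CPM in metestrus and 43.9, 34.1 and 0 CPM in diestrus, Abhd4 had 0, 32.2 and 31.0 CPM in metestrus and 0, 0 and 28.3 CPM in diestrus, and Pdia6 had 22.3, 27.1 and 0.596 CPM in metestrus and 0, 0 and 23.8 CPM in diestrus. Of these, Abhd4 met the second rule above (protein-coding, little shared sequence, no shared exon), and H2-Ea-ps and Pdia6 did not. Whether their counts were split with another gene was not tested.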
